A study of Mus musculus with 16 samples.

Results

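The genes described here are Atf4 and 9 genes of the amino acid response and of cystine transport, namely Asns, Ddit3, Chac1, Trib3, Slc7a11, Slc3a2, Psat1, Phgdh and Sesn2, in macrophages sorted from mouse fat. They were chosen by name, with earlier results of these data known. A probe set is the group of short probes that reports one transcript on an Affymetrix array. It was taken when its only gene symbol was one of the 10. This gave 21 of the 34945 single-symbol probe sets and 10 of 18193 genes. All 10 genes were brighter than the array median on at least 4 arrays and were tested among the 11908 that were.

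Cells came from perigonadal fat of C57BL/6J mice aged 12 to 14 weeks, either lean with intact leptin (Lep +/+) or obese because they lack it (Lep ob/ob). FB cells carried F4/80 and CD11b but not CD11c, and FBC cells carried all of F4/80, CD11b and CD11c. Each of the 4 combinations of genotype and cell fraction had 4 arrays, 16 in all, and the RNA went through 2 rounds of amplification before labelling. The series text gives 4 lean and 4 obese mice as the source of the sorted fractions, but does not say which FB and FBC arrays came from one mouse. The obese groups stand for lifelong loss of leptin, and no diet-induced obesity was measured. The fat was digested with enzymes and the cells were sorted before RNA was taken.

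ATF4 is a transcription factor whose amount is set largely by translation: when amino acids run short or the endoplasmic reticulum is stressed, kinases phosphorylate the initiation factor eIF2, most protein synthesis slows, and Atf4 mRNA is read more efficiently. ATF4 protein then switches on genes that make, import and charge amino acids, together with regulators such as CHOP (Ddit3) and TRIB3 that can limit the response or lead to cell death. In macrophages the same program supplies cystine for glutathione through the antiporter xCT, which is built from the Slc7a11 and Slc3a2 products. Array values report mRNA only, so neither eIF2 phosphorylation nor ATF4 protein was measured.

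Itgax, which encodes the CD11c used in the sort, gave intensities of 827 to 1950 in lean FBC against 375 to 516 in lean FB, and of 1523 to 2893 in obese FBC against 330 to 615 in obese FB, so the fractions did not overlap in either genotype. Each of the 10 macrophage markers, such as Adgre1 for F4/80, was above the array median on at least 1 array of every group. Markers of other cells also differed: in lean mice the summed intensity of 7 monocyte markers was 20592 to 44643 for FB and 16767 to 19820 for FBC, and in obese mice it was 40176 to 47174 for FB and 9792 to 13388 for FBC. The sum of 7 dendritic cell markers was 2504 to 2932 for FB and 6849 to 12872 for FBC of lean mice, and 606 to 1120 for FB and 3049 to 5947 for FBC of obese mice. No marker gene was at 0 on all arrays of a group. The actin ratio, of 3′ over 5′ control probes, which rises when RNA is degraded or shortened, was 53.3, 48 and 45 on array 4 of lean FB, lean FBC and obese FB, and at most 10.9 on the other 13 arrays.

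The obese FBC cells differed from both lean FBC and obese FB in 3 of the 10 genes. By the probe set of highest mean for each gene, they had more mRNA for asparagine synthetase (Asns), less for Atf4 itself, and less for the cystine transporter Slc7a11. A dimmer probe set passed in both comparisons for Asns but in neither for Atf4 or Slc7a11. Against lean FBC, Asns rose 2.12-fold, Atf4 fell 2.14-fold and Slc7a11 fell 3.31-fold, while Chac1, a glutathione-degrading enzyme, also fell, by 1.66-fold. Folds are on the log2(intensity + 16) scale after normalization, and p-values were adjusted over all genes tested. Of the 10 genes, 4 passed an adjusted p of 0.05 in that comparison, which is 40% against 14.1% of all genes tested (limma). Of these, 1 was higher, as were 8.12% of all genes, and 3 were lower, as were 5.95%. The 10 genes were chosen with earlier results of these data known, so these shares are no unbiased measure of an excess. In the CD11c-negative FB cells none of the 10 passed for obese against lean, where 5.89% of all genes did, and 4 had an unadjusted p under 0.05, as did 20.2% of all genes. In bulk samples of sorted cells, fewer cells of a type and less RNA per cell cannot be told apart.

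**Figure D1:**
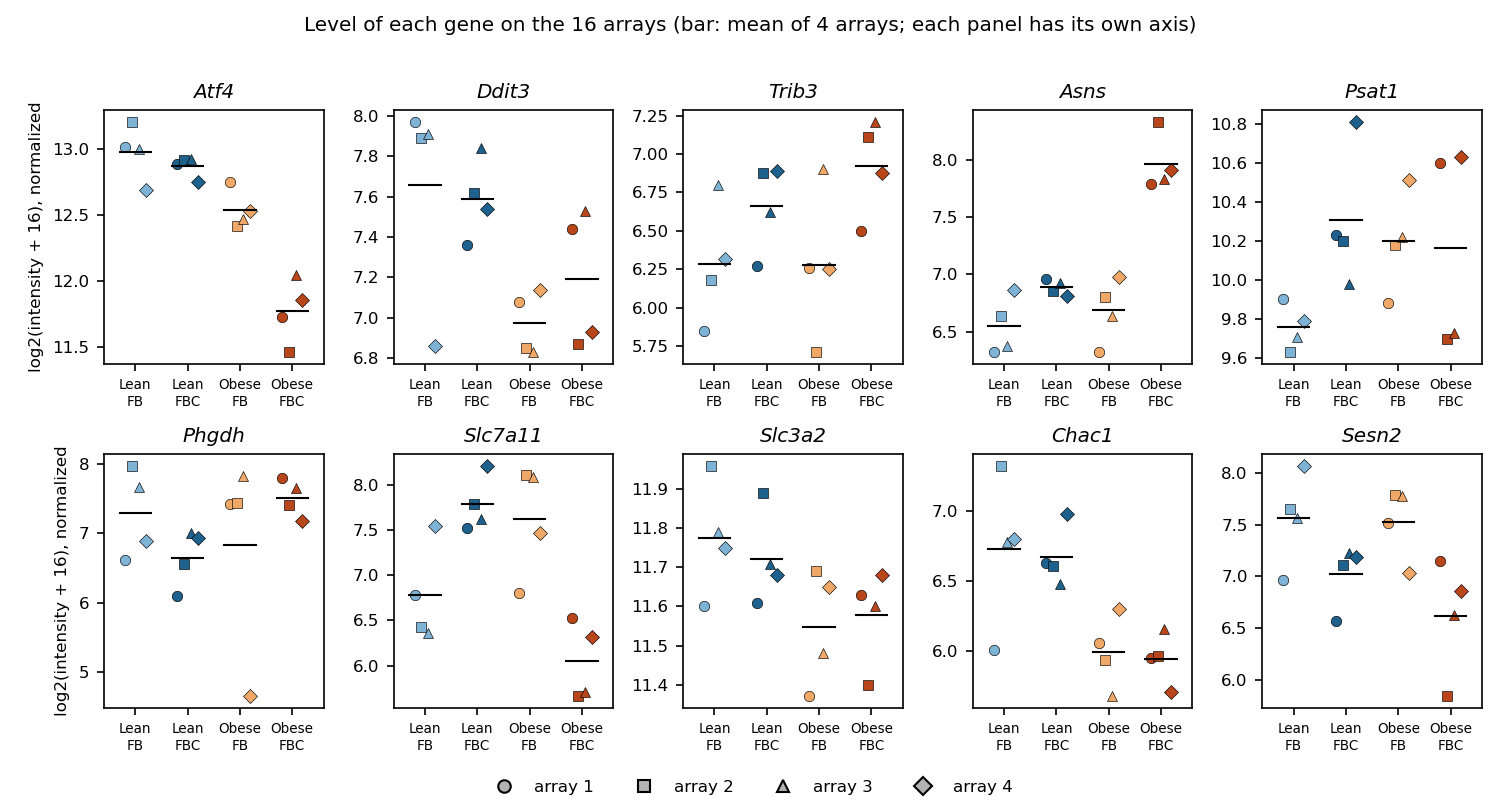
Level of each of the 10 genes on the 16 arrays, as normalized log2(intensity + 16) on a separate axis per gene; each symbol is 1 array, its shape the array number, and the bar the mean of 4 arrays. The obese FBC arrays lie below all others for Atf4 (mean 11.78) and above all others for Asns (mean 7.96).

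Atf4 had the highest intensities of its most abundant probe set in the lean groups. The 4 lean FB arrays read 7666, 10734, 7605 and 7744, and the 4 lean FBC arrays read 6980, 8101, 8744 and 8249. The obese FB arrays read 7901, 5515, 5778 and 6542. The obese FBC arrays read 3437, 2612, 3646 and 3478, so the highest obese FBC array lay below the lowest array of every other group. On the log2 scale the group means were 12.98 ± 0.22 for lean FB, 12.87 ± 0.09 for lean FBC, 12.54 ± 0.15 for obese FB and 11.78 ± 0.25 for obese FBC (SD, n = 4 arrays each). Obese FBC was lower than lean FBC by a log2 difference of -1.10 ± 0.16 (SE, adjusted p = 0.000355, limma), and rank 152 of 11908 genes by p. The difference of obese FB from lean FB was -0.44 ± 0.16 (adjusted p = 0.133), and the difference between these obesity effects was -0.66 ± 0.23 (adjusted p = 0.238), so the effects in FBC and FB were not shown to differ. Without lean FB array 4 the FB difference was -0.53 (adjusted p = 0.0477). Within obese mice, FBC was lower than FB by -0.77 ± 0.16 (adjusted p = 0.00834). Within lean mice the difference was -0.11, with a 95% interval from -0.45 to 0.24.

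Atf4 is also read by a dimmer probe set, 1448135_at, which gave a different picture of the obese FBC cells. The lean arrays read 2639, 2645, 2716 and 1894 for FB and 3116, 2972, 3185 and 1985 for FBC. The obese arrays read 1943, 1781, 1514 and 984 for FB and 2204, 1420, 1283 and 2259 for FBC. The lowest array of lean FB, of lean FBC and of obese FB was array 4 in each case, which are the 3 arrays of high actin ratio. How far the actin ratio contributed was not tested. With all 34945 probe sets tested singly, its obese minus lean difference was -0.65 ± 0.26 in FBC (adjusted p = 0.167) and -0.72 ± 0.26 in FB (adjusted p = 0.188), and its FBC minus FB difference in obese mice was 0.21 ± 0.26 (adjusted p = 0.751). The direction of the obesity difference was thus the same by both probe sets, but in FBC it passed with 1438992_x_at only. The fall from FB to FBC within obese mice was also seen with 1438992_x_at only. When each gene was taken as the mean of its probe sets, Atf4 was lower in obese FBC than in lean FBC by -0.57 (adjusted p = 0.0128), while the difference within obese mice was -0.17 (adjusted p = 0.477). The remaining probe set, 1439258_at, read 1.9 to 19.3 and lay below the median of every array.

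Ddit3 encodes CHOP, a factor induced by ATF4. Its arrays read 241, 226, 238 and 91.4 in lean FB and 149, 181, 218 and 153 in lean FBC. Those of obese mice read 123, 90.1, 93.6 and 108 in FB and 154, 108, 193 and 105 in FBC. The lean FB and obese FB arrays overlapped through lean FB array 4 alone, whose actin ratio was 53.3. The obese minus lean difference was -0.68 ± 0.24 in FB (adjusted p = 0.105) and -0.40 ± 0.24 in FBC (adjusted p = 0.288). Without lean FB array 4 the FB difference was -0.95 and passed (adjusted p = 0.00451, limma), while all genes called rose from 701 to 1501. The other Ddit3 probe set, 1443897_at, differed by -0.54 ± 0.40 in FB (adjusted p = 0.586) and by -0.06 ± 0.40 in FBC (adjusted p = 0.963, probe sets tested singly).

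Trib3 encodes a pseudokinase that ATF4 and CHOP induce and that dampens them. Its intensities were 40.5 to 110 for FB and 56.9 to 102 for FBC of lean mice, 34 to 98 for FB and 69.7 to 152 for FBC of obese mice, and all groups overlapped. Its obese minus lean differences were -0.01 ± 0.26 in FB and 0.26 ± 0.26 in FBC. FBC minus FB was 0.65 ± 0.26 in obese mice (adjusted p = 0.132) and 0.38 ± 0.26 in lean mice (adjusted p = 0.759).

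Asns makes asparagine from aspartate and glutamine, and its promoter is the classic example of an amino acid response element. The lean FB arrays read 65.3, 93.9, 79 and 91.8, the lean FBC arrays 106, 99.6, 109 and 87, and the obese FB arrays 70.6, 86.8, 79.8 and 94.8. The obese FBC arrays read 202, 335, 242 and 235. The lowest of these was higher than the highest array of any other group, while the other 3 groups lay between 65.3 and 109. Asns was higher in obese than in lean FBC by 1.08 ± 0.18 (adjusted p = 0.00106) and higher in FBC than in FB of obese mice by 1.28 ± 0.18 (2.43-fold, adjusted p = 0.000495, limma). These comparisons share the obese FBC arrays. In FB the obese minus lean difference was 0.13, with a 95% interval from -0.25 to 0.52, and the difference between the obesity effects was 0.95 ± 0.26 (adjusted p = 0.142). The other Asns probe set, 1433966_x_at, read 149, 199, 214 and 133 in obese FBC and 67.7 to 112 elsewhere, again with no overlap. It was higher in obese FBC than in lean FBC by 0.76 ± 0.21 (adjusted p = 0.038) and than in obese FB by 0.78 ± 0.21 (adjusted p = 0.049, probe sets tested singly).

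Psat1 and Phgdh encode enzymes of serine synthesis from a glycolytic intermediate. The Psat1 arrays read 948, 748, 819 and 853 in lean FB and 1218, 1147, 974 and 1831 in lean FBC, and these groups did not overlap, but the difference of 0.55 ± 0.24 did not pass (adjusted p = 0.577). In that comparison 5.63% of all genes had groups that did not overlap. Obese FB read 902 to 1473 and obese FBC 854 to 1567, across the range of lean FBC. The obese minus lean difference of Psat1 was 0.44 ± 0.24 in FB (adjusted p = 0.322) and -0.14 ± 0.24 in FBC (adjusted p = 0.747). Another Psat1 probe set, 1451064_a_at, differed by 0.67 ± 0.27 in FB (adjusted p = 0.24) and by 0.59 ± 0.27 in FBC (adjusted p = 0.231), so the sign in FBC depended on the probe set.

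Phgdh read 203, 165, 211 and 129 in obese FBC and 47.2, 77.3, 118 and 95.3 in lean FBC, without overlap. The log2 difference was 0.86 ± 0.52 (adjusted p = 0.291). The wide error comes with obese FB array 4, which read 6.7 where the other obese FB arrays read 159, 144 and 197. Without the 3 arrays of high actin ratio, of which it is 1, the FBC difference was 0.95 (adjusted p = 0.0369). The other 3 Phgdh probe sets differed between obese and lean FBC by 0.13 to 0.39 with adjusted p of at least 0.631, so the call rested on 1 probe set and on the arrays used. Obese minus lean in FB was 0.58 to 0.75 by these 3, but -0.46 by the main probe set. FBC minus FB in obese mice was -0.52 to -0.23 by these 3, but 0.68 by the main probe set. None of these differences passed.

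Slc7a11 encodes the transporting chain of xCT, which takes up cystine in exchange for glutamate. Its arrays read 97, 80.1, 78.3 and 160 in lean FB and 170, 207, 185 and 256 in lean FBC. By this main probe set, 1420413_at, the order was turned in obese mice, with 101, 246, 244 and 141 in FB and 72.1, 34.6, 39.3 and 60.4 in FBC. The obese FBC arrays were the lowest of the 4 groups, but after normalization the highest of them, at 6.53, overlapped lean FB, whose lowest was 6.36. The log2 means of FB and FBC were 6.78 ± 0.55 and 7.78 ± 0.31 in lean mice, and 7.62 ± 0.62 and 6.06 ± 0.44 in obese mice (SD, n = 4). Obese FBC was lower than lean FBC by -1.73 ± 0.32 (adjusted p = 0.00214) and lower than obese FB by -1.56 ± 0.32 (2.95-fold, adjusted p = 0.00634, limma). Obese minus lean in FB was 0.84 ± 0.32 (adjusted p = 0.141), and FBC minus FB in lean mice was 1.0 ± 0.32 (adjusted p = 0.334). The arrays of lean and obese FB overlapped. Those of lean FB and lean FBC did not overlap as deposited, at 160 or lower against 170 or higher, but did after normalization, where lean FB array 4 was at 7.55 and lean FBC array 1 at 7.52. Without lean FB array 4 the FB difference was 1.10 and passed (adjusted p = 0.0293).

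The obesity effect on Slc7a11 differed between the fractions, by -2.57 ± 0.45 (adjusted p = 0.0418, limma). It ranked 8 among 11908 genes, of which 0.16% passed. It was the only one of the 10 genes to pass for that difference. The call was narrow: leaving out any of 12 single arrays raised the adjusted p to between 0.06 and 0.122, and these were lean FB arrays 1, 2 and 3, lean FBC arrays 1, 2 and 4, and arrays 2, 3 and 4 of obese FB and of obese FBC. The other Slc7a11 probe set, 1443536_at, differed in the same direction, by -1.38 ± 0.58 (adjusted p = 0.443), and followed the first over the 16 arrays with r = 0.76. It read 42, 226, 212 and 102 in obese FB and 44.2, 15.7, 31 and 52.2 in obese FBC, and 48.8 to 115 in the lean groups. Its obese minus lean difference in FBC was -0.67 ± 0.41 (adjusted p = 0.395), so the fall in FBC passed with 1420413_at only.

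Slc3a2 encodes the heavy chain that carries xCT and several other amino acid exchangers to the cell surface. It stayed within a narrow range, with 3003 to 4062 for FB and 3053 to 3850 for FBC of lean mice, and 2616 to 3488 for FB and 2515 to 3235 for FBC of obese mice. Its obese minus lean differences were -0.23 (95% interval from -0.54 to 0.08) in FB and -0.14 (-0.45 to 0.17) in FBC.

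Chac1 cleaves glutathione and is induced through ATF4 and CHOP. Its arrays read 47.8, 152, 109 and 87.8 in lean FB and 80.1, 81.4, 75.9 and 99.7 in lean FBC. Obese FB read 57.9, 42.4, 36.7 and 53 and obese FBC 43.1, 47.4, 62.3 and 33. All 4 lean FBC arrays were above all 4 obese FBC arrays, and in FB lean array 1 fell among the obese arrays. The difference was -0.73 ± 0.23 in each fraction, with adjusted p = 0.0464 in FBC and 0.0748 in FB, and the difference between these effects was 0.00 ± 0.33. The FBC call was lost without any of 12 arrays taken singly (all arrays of lean FBC and obese FBC, arrays 1 to 3 of obese FB and array 3 of lean FB), with adjusted p from 0.0505 to 0.117. Without lean FB array 1 the FB difference was -0.97 and passed (adjusted p = 0.0158).

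Sesn2 encodes a leucine sensor that restrains the growth kinase complex mTORC1. The lean arrays of its main probe set read 114, 192, 191 and 242 for FB and 75.2, 123, 139 and 117 for FBC. The obese arrays read 170, 190, 192 and 98.8 for FB and 122, 41.9, 96.2 and 99 for FBC. FBC minus FB was -0.91 ± 0.29 in obese mice (adjusted p = 0.0596) and -0.54 ± 0.29 in lean mice (adjusted p = 0.659). Obese minus lean was -0.40 ± 0.29 in FBC (adjusted p = 0.374) by this probe set and 1.31 ± 0.48 (adjusted p = 0.123) by the dimmer 1451599_at, which was above the array median on 8 of 16 arrays. By the main probe set, the difference within obese mice passed without lean FB array 4 (-0.91, adjusted p = 0.0427), obese FB array 4 (-1.07, 0.0497) or obese FBC array 1 (-1.08, 0.0387). By 1451599_at that difference was 0.2 ± 0.48 (adjusted p = 0.884, probe sets tested singly). The probe sets of Sesn2 thus gave opposite signs within obese mice, and also for obese against lean FBC, where neither passed.

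**Figure D2:**
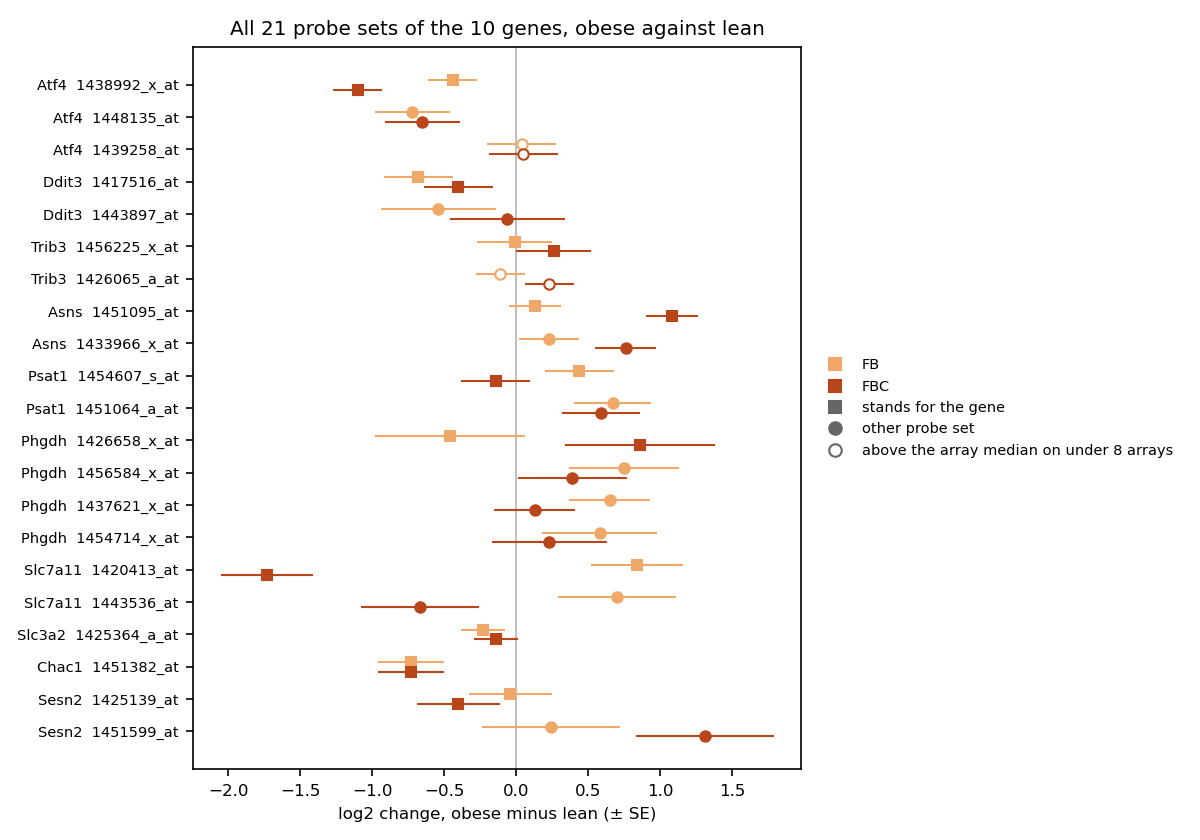
Obese minus lean log2 change (± SE) of all 21 probe sets in FB (light) and FBC (dark), where squares mark the probe set that stands for the gene and open symbols those above the array median on fewer than 8 arrays. Both Asns probe sets lie above 0 in FBC, at 1.08 and 0.76, both Slc7a11 probe sets lie below 0, at -1.73 and -0.67, and the Sesn2 and Psat1 probe sets lie on opposite sides of 0.

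Set side by side, the 5 comparisons gave unequal numbers of called genes. FBC against FB in obese mice called 3 of 10 against 8.39% of all genes tested. Asns was higher, as were 5.11% of all genes, and Atf4 and Slc7a11 were lower, as were 3.28%, and 5 of the 10 had an unadjusted p under 0.05, against 25.1% of all genes. FBC against FB in lean mice called none, against 0.193% of all genes, with 2 at an unadjusted p under 0.05, against 8.2% of all genes. With lean arrays paired by number, the genes called there went from 23 to 51, and still none of the 10 was called. The groups did not overlap for 5 of the 10 genes in obese against lean FBC (20% of all genes), for 3 in FBC against FB of obese mice (17.7%), for 1 in FBC against FB of lean mice (5.63%), and for none in obese against lean FB (11.8%). The median log2 change of the 10 was -0.27 for obese against lean FBC, where that of all genes was 0.08, and between -0.13 and 0.04 in the other comparisons. The genes moved in both directions, so the median describes no single one of them. With the 21 probe sets tested singly, 4 passed in obese against lean FBC and 4 in FBC against FB of obese mice, against 5.95% and 3.14% of all probe sets, and none passed in the other 3 comparisons, where 2.1%, 0.0372% and 0.0286% did.

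**Figure D3:**
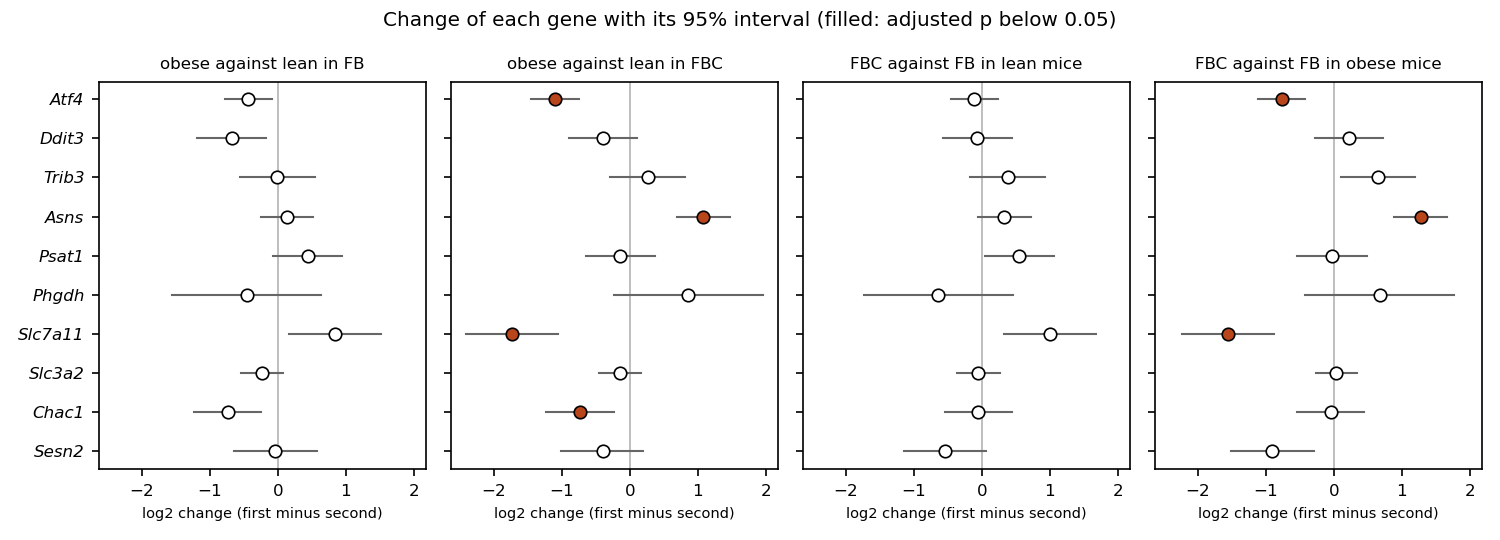
Log2 change of each of the 10 genes (first group minus second) with its 95% interval in 4 comparisons; filled points have an adjusted p below 0.05. Slc7a11 lies at 0.84 for obese against lean FB and at -1.73 for obese against lean FBC, and Asns at 0.13 and 1.08.

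Markers of several cell types moved in the same comparisons. Against lean FBC, where 14.1% of all genes passed, obese FBC had 2 of 7 tested monocyte markers and 4 of 6 tested dendritic cell markers lower and 2 of 10 macrophage markers higher, among them Adgre1 by 1.08 ± 0.24 (adjusted p = 0.00668). Of the other marker lists, 1 gene each was lower for eosinophils (Siglecf, -2.47) and mesothelium (Lrrn4, -1.04), 1 was higher for mast cells (Kit, 0.93), and for adipocytes Car3 was lower (-3.63) and Lep higher (1.12). Against obese FB, where 8.39% of all genes passed, obese FBC had 6 of 7 monocyte and 3 of 4 neutrophil markers and 1 of 2 tested B cell markers lower, and 3 of 6 dendritic cell and 1 of 3 tested mast cell markers higher. Their part in the results for Asns, Atf4 and Slc7a11 was not tested. Fibroblast markers summed to 1736 to 15405 in lean FBC and 2739 to 13662 in obese FBC, and 0 of 10 passed there (limma).

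In obese against lean FB, where 5.89% of all genes passed, 5 of 10 fibroblast markers, 4 of 6 dendritic cell markers, 2 of 5 tested adipocyte markers and 1 of 5 mesothelial markers were lower, and 3 of 7 monocyte markers were higher. The median log2 change was -2.07 for the fibroblast markers and 1.37 for the monocyte markers, against 0.03 for all genes. The fibroblast sum was 17892, 25466, 21342 and 3126 on the lean FB arrays and 2096 to 3148 on the obese FB arrays. Lean FB array 4, without which the FB differences of Atf4, Ddit3 and Slc7a11 passed, was thus close to the obese FB arrays in this sum. It also differed from lean FB arrays 1 to 3 in the sums for monocytes (44643 against 20592 to 24149), adipocytes (1756 against 5412 to 5595) and eosinophils (5299 against 307 to 456). Its mesothelial, mast cell and T and NK cell sums were below theirs. Its macrophage, dendritic cell, neutrophil, endothelial and B cell sums lay within their range. The part of these cell types in the FB differences of the 10 genes and of the lists was not tested.

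The actin ratio was 1.15 to 4.69 in obese FBC and, leaving out array 4, at most 10.9 in the other groups. Without the 3 arrays of high ratio, 4 of the 10 genes passed in obese against lean FBC, with Phgdh (0.95) called and Chac1 (-0.63) not, while the share of all genes that passed went from 14.1% to 21.1%. In obese against lean FB 3 passed, while that share went from 5.89% to 17%, and Ddit3 (-1.0) and Chac1 (-0.81) were lower and Slc7a11 (1.15) was higher.

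After each group's mean was subtracted, the 16 arrays showed how the genes varied together between arrays of one group, as a description. Ddit3 followed Atf4 with r = 0.70, whereas Asns (r = -0.62) and Slc7a11 (r = -0.56) ran opposite to it. The other 6 genes had r between -0.19 and 0.23. Each gene is read here by 1 probe set. Within groups, Atf4 1438992_x_at and 1448135_at followed each other with r = 0.38 only. The Asns probe sets did so with r = 0.28 and the Slc7a11 probe sets with r = 0.84. The points share array quality: the correlation with the log2 actin ratio within groups was 0.59 for Chac1, 0.51 for Asns, 0.34 for Slc7a11, -0.41 for Phgdh, -0.33 for Ddit3 and -0.32 for Atf4, and between 0.06 and 0.29 for the other 4. Over all 16 arrays, without subtraction, the genes most like Atf4 were Cmtm6 (r = 0.95), Baz1a (r = 0.93) and Tmem88 (r = 0.93). Those most like Asns were Ints4 (r = 0.90), Wfs1 (r = 0.89) and Slc27a1 (r = 0.89), and those most like Slc7a11 were Rbmxl1 (r = 0.93), Nip7 (r = 0.92) and F10 (r = 0.90). With Asns high in 1 group of 4, rank correlations were lower, at 0.78, 0.65 and 0.57.

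The promoters of the members were searched for TGATGNAA, the core of the element through which ATF4 dimers with C/EBP proteins bind target genes, on either strand. The windows ran from 250 bases before to 50 after each RefSeq start (GRCm38.p6), and all 10 genes had at least 1. The motif was in the windows of 4 of the 10 genes, Asns, Chac1, Slc7a11 and Trib3, against 1219 of 27025 genes with a window (4.51%). The 10 were chosen as genes of the amino acid response, so this share is no unbiased measure of an excess. Among the lists described below, it was 8 of 28 other amino acid response and ATF4 target genes (28.6%) and 5 of 13 cytosolic aminoacyl-tRNA synthetases (38.5%). In the remaining lists it was 0% to 8.33%. Stretches around it are printed for the called genes that hold it, read 5′ to 3′ on the gene's strand, with the matches in capitals. TTGCATCA is the motif on the opposite strand, and Slc7a11 holds 1 match on each strand.
Asns, chr6:7693210-7693263, minus strand, 54 to 1 bases before the start: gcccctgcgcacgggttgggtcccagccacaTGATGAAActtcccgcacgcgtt
Chac1, chr2:119351018-119351087, plus strand, 224 to 155 bases before the start: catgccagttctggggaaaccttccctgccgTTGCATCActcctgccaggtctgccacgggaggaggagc
Slc7a11, chr3:50443632-50443701, minus strand, 88 to 19 bases before the start: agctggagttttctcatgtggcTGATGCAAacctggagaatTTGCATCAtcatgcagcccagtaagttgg
The start used for Slc7a11 lies inside the annotated span of the gene. Of these 3 genes, whose windows share the motif, Asns rose and Slc7a11 and Chac1 fell in obese FBC. Atf4, Ddit3, Psat1, Phgdh, Slc3a2 and Sesn2 had no match, which says only that these letters are not in the windows searched. A match in a window is a description and not a measured binding site. TGACNNNGC, the core of the element bound by NRF2, the oxidative stress factor, was in the windows of Asns, Phgdh and Sesn2 and of 3781 of 27025 genes (14%). The Asns match to it does not overlap the one to TGATGNAA.

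**Figure D4:**
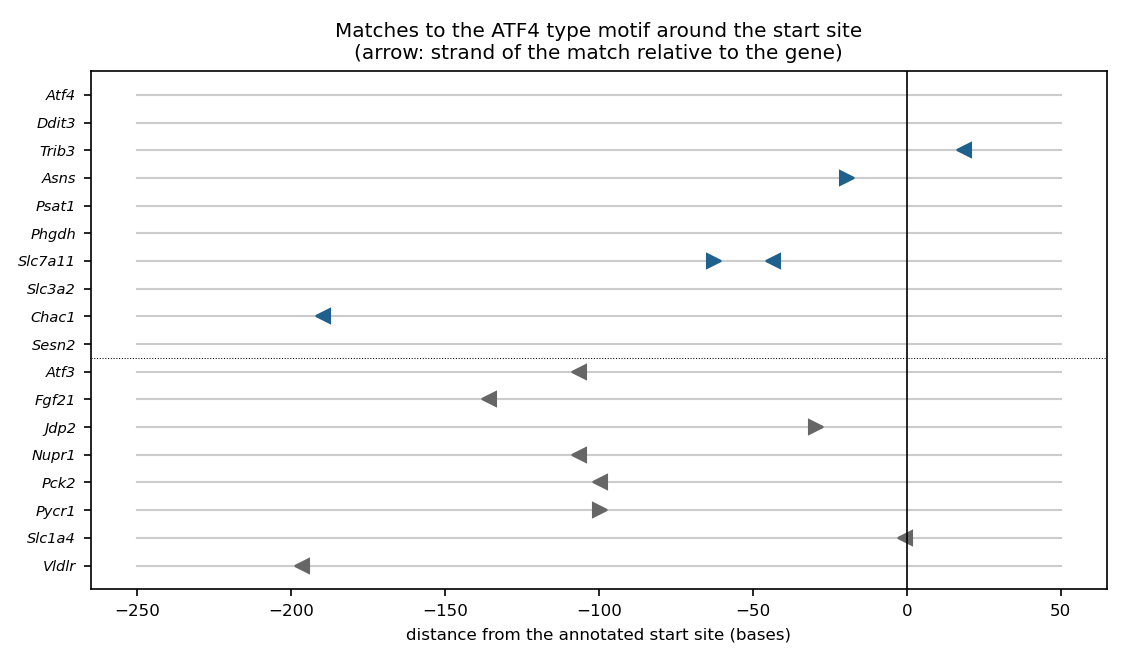
Positions of matches to TGATGNAA, in bases from the annotated start, in the 300-base windows of the 10 genes (upper, blue) and of the 8 other ATF4 and amino acid response genes that hold a match (lower, grey); the arrow gives the strand relative to the gene. The 2 Slc7a11 matches point toward each other, and the Asns match begins 23 bases before the start.

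Among 29 other tested genes of the ATF4 and amino acid response, obese against lean FBC called Gpt2 higher and Nupr1 and Jdp2 lower, 10.3% against 14.1% of all genes. Gpt2, which interconverts alanine and glutamate in mitochondria, had log2 means of 8.97 in lean and 10.14 in obese FBC, a rise of 1.17 ± 0.29 (adjusted p = 0.0125). Its other 3 probe sets differed by 0.84 to 1.19 in the same direction. Nupr1, a small stress-induced nuclear protein, fell by 1.47 (mean 10.06 to 8.59, adjusted p = 0.00654, limma), and its other probe set differed by -0.78 (adjusted p = 0.157). Jdp2, a repressor of the AP-1 family, fell by 1.27 (adjusted p = 0.0233), but its other probe set differed by 0.18. The Jdp2 call ended without lean FBC array 2, 3 or 4 or obese FBC array 1 or 2 (adjusted p 0.0533 to 0.0671). The median of the 29 was -0.13.

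Within obese mice, 1 of the 29 was called higher in FBC than in FB and 1 lower, 6.9% against 8.39% of all genes. Gpt2 was higher by 1.63 ± 0.29 (adjusted p = 0.00221), and Nupr1 was lower by -1.72 ± 0.32 (adjusted p = 0.00329, limma). Gpt2 and Asns were the called genes of the response that were higher in obese FBC in both comparisons, and Nupr1, Atf4 and Slc7a11 those that were lower. In FB, obese against lean called 1 of the 29, the lipoprotein receptor gene Vldlr, by -2.41 ± 0.64 (adjusted p = 0.0337), which is 3.45% against 5.89% of all genes. Its other 5 probe sets differed by -1.88 to 0.19, and leaving out any of 7 arrays, lean FB arrays 1 to 3 or any obese FB array, ended the call (adjusted p 0.0556 to 0.115). None of the 29 was called in FBC against FB of lean mice or for the difference between the obesity effects, where 0.193% and 0.16% of all genes were.

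**Figure D5:**
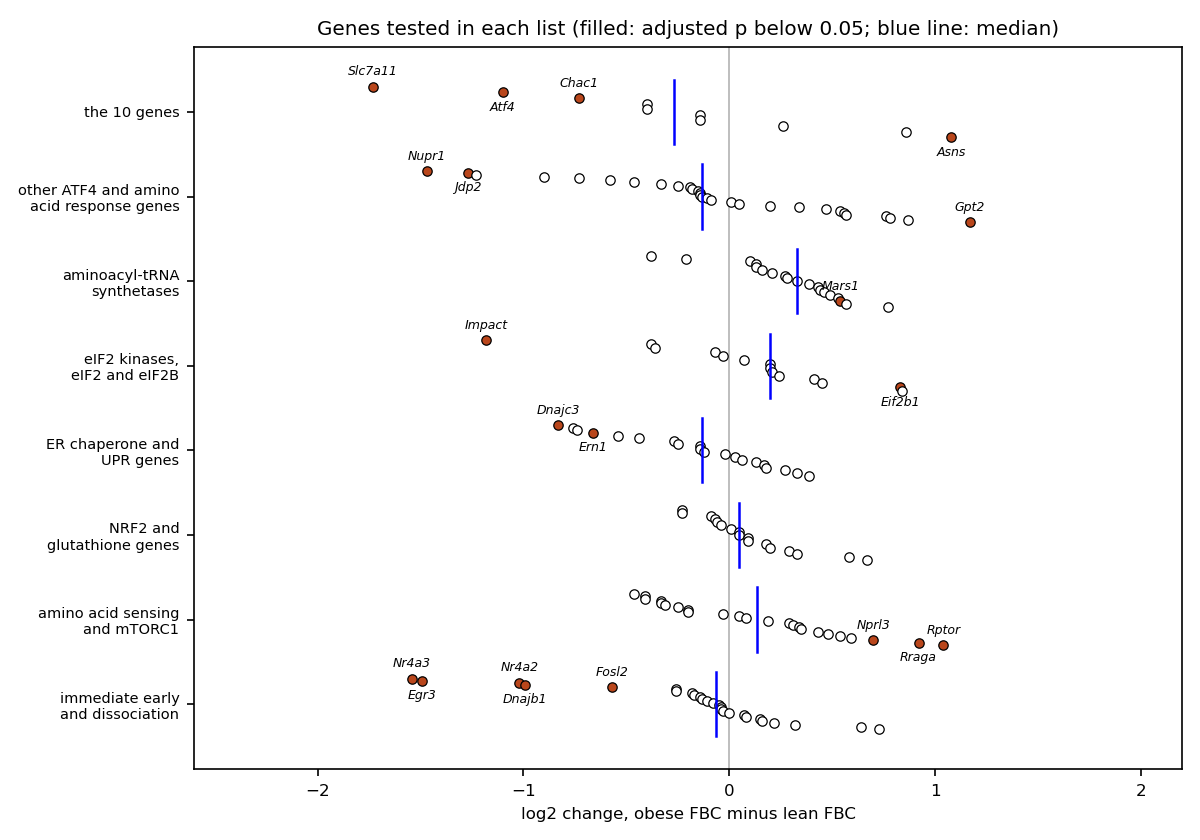
Obese minus lean log2 change in FBC of every tested gene of 8 lists; filled points have an adjusted p below 0.05 and are named, and the blue line is the list's median. The 10 genes have called members on both sides, from Slc7a11 at -1.73 to Asns at 1.08, and the NRF2 and glutathione list has none.

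The 19 aminoacyl-tRNA synthetases of the cytosol, which load amino acids onto tRNA and include many ATF4 targets, had a median of 0.33 in obese against lean FBC, where all genes had 0.08. A single one passed, the methionine enzyme Mars1, at 0.54 ± 0.16 (adjusted p = 0.0346), 5.26% against 14.1% of all genes. It lost the call without lean FBC array 1 or 2 or obese FBC array 1, 2 or 3 (adjusted p 0.0625 to 0.0971). Of the 14 genes around eIF2, 2 passed, 14.3% and so close to the share of all genes. Eif2b1, a subunit of the exchange factor that recharges eIF2, was higher by 0.83 ± 0.21 (adjusted p = 0.0135). Impact, an inhibitor of the amino acid sensing kinase GCN2, was lower by -1.18 ± 0.34 (adjusted p = 0.0282), and its other probe sets differed by -0.78 and 0.43. Its call ended without lean FBC array 1, 2 or 3 or obese FBC array 2 or 3 (adjusted p 0.0634 to 0.0851). No eIF2 kinase gene passed.

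Of 20 endoplasmic reticulum chaperone and unfolded protein response genes outside the ATF4 arm, 2 passed in obese against lean FBC, both lower, 10% against 14.1% of all genes. They were the co-chaperone Dnajc3, at -0.83 ± 0.24 (adjusted p = 0.0319), whose other 4 probe sets differed by -0.41 to -0.70, and Ern1, the stress sensor IRE1, at -0.66 ± 0.19 (adjusted p = 0.0262). The other Ern1 probe sets ranged from -0.38 to 0.91, and the mean over its probe sets differed by -0.02 (adjusted p = 0.939). Both calls ended without lean FBC array 1 or 2 or obese FBC array 1 or 4, that of Dnajc3 also without obese FBC array 2 and that of Ern1 also without lean FBC array 4 (adjusted p 0.0551 to 0.0904). None of 17 NRF2 target and glutathione genes passed in any of the 5 comparisons, and their median in obese against lean FBC was 0.05. At an unadjusted p under 0.05, 1 of the 17 was counted there, 5 in obese against lean FB, and 2 to 3 in the others (limma), where 28.9%, 20.2% and 8.2% to 25.1% of all genes were.

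Of 24 genes of amino acid sensing and mTORC1, 3 passed in obese against lean FBC, all higher, 12.5% against 14.1% of all genes called and 8.12% called higher. They were Rptor, which encodes the mTORC1 scaffold raptor, at 1.04 ± 0.27 (adjusted p = 0.0176), Nprl3, a subunit of the inhibitory GATOR1 complex, at 0.70 ± 0.20 (adjusted p = 0.0263), and Rraga, a Rag GTPase, at 0.92 ± 0.30 (adjusted p = 0.0499). The Rraga call was lost in 21 of 31 alternatives, among them the loss of any of 12 arrays (all but lean FB 4, obese FB 1 and 4 and obese FBC 3, adjusted p 0.0525 to 0.133). The Nprl3 call ended without lean FBC array 1, 2 or 3 or obese FBC array 2 or 3 (0.0623 to 0.0927), and that of Rptor without lean FBC array 2 or obese FBC array 3 (0.0503 and 0.0549). Within obese mice, 1 of the 24 was called higher in FBC than in FB and 1 lower, 8.33% against 8.39% of all genes. Rptor was higher by 1.05 ± 0.27 (adjusted p = 0.0237, limma, but 0.0537 to 0.0763 without obese FB array 1 or 4 or obese FBC array 2 or 3). The arginine sensor gene Castor1 was lower by -0.79 ± 0.23 (adjusted p = 0.0443), a call lost in 17 of 31, among them the loss of any of 9 arrays (lean FB 3, lean FBC 2 and 3, obese FB 2, 3 and 4, and obese FBC 1, 3 and 4, adjusted p 0.0555 to 0.115). Of the 24, 1 was called in obese against lean FB, 4.17% against 5.89% of all genes. This was Sesn3, a relative of Sesn2, lower by -0.60 ± 0.16 (adjusted p = 0.033, limma), a call lost in 10 of 31. Without any of lean FB arrays 1, 2 or 3 or obese FB arrays 1, 3 or 4, the Sesn3 adjusted p was 0.0537 to 0.112.

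Of 26 immediate early and dissociation stress genes, which respond within minutes to handling and to growth signals, 5 passed in obese against lean FBC, all lower (19.2% against 14.1% of all genes called and 5.95% called lower). The 3 largest were Nr4a3 at -1.54 ± 0.24 (adjusted p = 0.00062), Egr3 at -1.49 ± 0.27 (adjusted p = 0.00198) and Nr4a2 at -1.02 ± 0.29 (adjusted p = 0.028, but 0.0585 to 0.081 without lean FBC array 2 or 4 or obese FBC array 2 or 3). In obese against lean FB, 1 of the 26 passed, 3.85% against 5.89% of all genes. It was Egr3 at -0.98 ± 0.27 (adjusted p = 0.0444, limma). The call ended without any of 11 arrays (lean FB and lean FBC 1 to 3, obese FB 2 and 3, and obese FBC 2 to 4, adjusted p 0.051 to 0.144). Another Egr3 probe set differed by 0.12 in FB and -0.10 in FBC. Nr4a2 was also lower in FBC than in FB of obese mice by -1.52 ± 0.29 (adjusted p = 0.00408, limma). It was the only 1 of the 26 called there, 3.85% against 8.39% of all genes. Atf4 and Slc7a11 fell in the same comparisons as Nr4a2, and the part of tissue handling in them was not tested. The median of the 26 genes in obese against lean FBC was -0.07. None of the genes of the 7 lists passed in FBC against FB of lean mice or for the difference between the obesity effects. Of all genes, only 0.193% and 0.16% passed there, so the absence of calls says little about the lists. At an unadjusted p under 0.05, 976 and 1576 of all genes were counted (limma).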

How the data were processed

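Gene expression was measured on 16 Affymetrix mouse arrays, 4 for each combination of genotype and cell fraction. The authors deposited linear intensity values, 1 per probe set, and the submitters' processing notes name Affymetrix Expression Console. Its version, the summarization method and any genome build were not given in the sources used here. The 2% trimmed mean was 250 on every array, and the values hold no detection calls, so low values have no stated floor. The number of arrays limits the precision.

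Values were taken as log2(intensity + 16), which understates the change of dim genes, and quantile-normalized. Control probe sets (64) and those with several symbols (932) or none were left out. Symbols came from the platform annotation, 34741 single-symbol probe sets had a gene ID in the RefSeq table, and 0 symbols were renamed. The single-symbol probe set of highest mean stood for each gene, and 11908 genes, those exceeding the array median on 4 or more arrays, were tested. A limma model with the 4 groups (lmFit and eBayes, 12 residual and 16.5 total degrees of freedom) gave 5 comparisons, with Benjamini-Hochberg adjustment over the genes tested and a threshold of 0.05. All tests were two-sided. The script was tested on simulated data. Probe sets tested singly used the same model over all 34945.

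The members and lists were chosen with earlier results of these data known. Named beside the 10 genes were, per list and comparison, up to 3 called genes with the largest change, and the 3 genes with the highest r to Atf4, Asns and Slc7a11, clone and model symbols left out. The Itgax probe set was a check of the sort. Since the labels tie no array to a mouse, p-values reflect only how far arrays spread, which may in part be technical. No 2 arrays held identical values, and the highest correlation between arrays was 0.98. Arrays of the same number in FB and FBC deviated together in lean mice, with r of 0.135, 0.231, 0.299 and 0.595, whereas in obese mice r was 0.31, 0.0333, -0.0297 and -0.137 and exceeded 0.1 for number 1 only, so the pairing was used as an alternative, the replicate block, and its value is given beside the lean comparison. In all, 31 alternatives were tried, covering the filter, the choice of probe set, the normalization, the pseudocount, the eBayes settings, array weights, the groups fitted, the replicate block, the actin ratio and each array left out. Promoter sequences came from RefSeq (GRCm38.p6). Python 3.11.15 and matplotlib 3.10.9 were used for sequences and figures, R 4.3.3 with limma 3.58.1 for the statistics.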

Additional observations from a re-analysis of the deposited data

Results flagged for a closer look

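In groups of 4 arrays, a single array far from the other 3 was looked for with Dixon's ratio, the gap to the nearest array over the group's whole range, for all 21 probe sets. Of 84 groups, 7 held such an array, and chance gives about 1 in 20. Array 4 of lean FB was low for Ddit3 1417516_at, at a log2 level of 6.86 against 7.89 to 7.97 (ratio 0.92), and for Atf4 1448135_at, at 10.86 against 11.39 to 11.49 (ratio 0.834). Array 4 of lean FBC was low for Atf4 1448135_at, at 10.91 against 11.53 to 11.65 (ratio 0.833), and high for Trib3 1426065_a_at, at 6.13 against 5.65 to 5.70 (ratio 0.906). Array 4 of obese FB was low for Phgdh 1426658_x_at, at 4.65 against 7.42 to 7.82 (ratio 0.875), and for Phgdh 1437621_x_at, at 5.77 against 7.07 to 7.16 (ratio 0.931). Array 1 of obese FBC was low for Phgdh 1437621_x_at, at 5.61 against 6.41 to 6.52 (ratio 0.887). These array 4 libraries are the 3 with actin ratios of 45 to 53.3.

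Slc7a11 stood out because its obesity effect differed between FBC and FB, by -2.57 on the log2 scale (adjusted p = 0.0418, limma).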

How the results depend on the processing

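In obese against lean FBC, Atf4 (-1.32 to -0.57), Asns (0.92 to 1.19) and Slc7a11 (-2.01 to -1.20) kept direction and call in all 31 alternatives, and in obese FBC against FB so did Asns (1.03 to 1.43) and Slc7a11 (-1.83 to -1.39). Atf4 there lost the call in 1, the mean of its probe sets. No alternative put another probe set of these genes alone in the gene's place. Tested singly in obese against lean FBC, Asns 1433966_x_at passed (0.76, adjusted p = 0.038, limma). Atf4 1448135_at (-0.65, adjusted p = 0.167) and Slc7a11 1443536_at (-0.67, adjusted p = 0.395) did not. The Chac1 call in FBC was lost in 19 of 31 (adjusted p up to 0.117) and the Slc7a11 difference between effects in 16 of 30 (up to 0.122). No call was reversed.

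The number of the 10 genes called for obese against lean FB was 0, where 701 of all genes were called. It was 5 with array weights (all genes 3987). With the 3 arrays of high actin ratio left out together it was 3 (all genes 2022). It was 1 when that ratio entered as a covariate (all genes 1159). When single arrays were left out it was 0 to 3, with 3 called without lean FB array 4 (all genes 1501). For FBC against FB in lean mice it was 2 with array weights (all genes 1324, against 23) and 0 otherwise. For the difference between effects it was 1, but 0 without the filter on dim genes, 0 with the mean of probe sets, 0 with probe sets tested singly, 0 with a pseudocount of 1, 3 with array weights (all genes, or probe sets, 19 and in these settings 3, 25, 10, 4 and 1536), and 0 to 1 when single arrays were left out. For obese against lean FBC it was 3 to 5 (all genes 1040 to 4115) and for FBC against FB in obese mice 2 to 4 (all genes 553 to 2202). The causes were not tested. Genes called among all tested ranged, over single arrays left out, from 333 to 1501, 1040 to 2011, 8 to 34, 553 to 1328 and 2 to 349 for obese against lean FB and FBC, FBC against FB in lean and obese mice and the difference between effects, and up to 3987, 4115, 1324, 2202 and 1536 under other settings.

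With the number as a replicate block, the counts of the 10 genes in the same order were 0, 4, 0, 4 and 1. The block added Sesn2 in obese FBC against FB (-0.91, adjusted p = 0.043) and changed no other call of the 10, and the genes called overall went from 999 to 1655 there, from 23 to 51 in lean mice and from 19 to 230 for the difference. Of the 42 results for the 10 genes that did not pass, 12 passed under at least 1 alternative, and 51 of their 1293 values had the other sign. The arrays hold no detection calls, so signal over background limits the dim probe sets most.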
